A study of Mus musculus with 85 samples.

Results

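Chemokines are small secreted or membrane-held ligands that steer the movement of cells through receptors coupled to G proteins. The 10 ligand genes described here are Ccl2, Ccl3, Ccl4, Ccl6, Ccl12, Cxcl10, Cxcl12, Cxcl14, Cxcl16 and Cx3cl1, taken by gene symbol from 53891 features of a table of hippocampal expression (rows with the same symbol summed). Each sat on a row that carries its symbol alone, and Cxcl16 was the sum of 2 rows. A filter of at least 1 FPKM (fragments per kilobase of transcript, scaled to the mapped fragments of a library) in at least 10 libraries left 21297 features, among them 6 of the 10 ligands.

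The data are RNA sequencing of total hippocampal RNA, 1 library for each of 85 mice, all of them 8 months old. Transgenic mice of the strain labelled APPswePSEN1dE9 (called AD in the labels) were set against C57BL/6J control mice, in either sex and on a methionine-restricted or a standard feed. The groups, AD before control, were MADMR (n = 11) and MWTMR (n = 10), males on restricted feed, MAD (n = 11) and MWT (n = 11), males on standard feed, FADMR (n = 11) and FWTMR (n = 10), females on restricted feed, and FAD (n = 11) and FWT (n = 10), females on standard feed. In the widely used line of this name, mutant amyloid precursor protein and an exon-deleted presenilin are each driven by the mouse prion promoter, so the transgenes are not limited to 1 cell type. The labels give neither the methionine content of the feeds nor a litter, cage or batch.

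As background, some chemokines of the brain are made all the time and others are induced. Neurons hold Cx3cl1 on their surface, and microglia read it through Cx3cr1. Cxcl12 acts through Cxcr4 and is taken up by Ackr3, and Cxcl14 is made by neurons and epithelia. Ccl2 and Ccl12 bind Ccr2, Cxcl10 binds Cxcr3 and Cxcl16 binds Cxcr6. These ligands, with Ccl3 and Ccl4, are known from activated microglia and macrophages. Microglia that gather at amyloid plaques are known to express Ccl3, Ccl4 and Ccl6.

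Depth is unknown, because FPKM holds no read counts. Rows at 1 FPKM or more numbered 17973 to 20441 per library. The Prnp locus, which also counts transcripts behind the prion promoter, reached at least 917 FPKM in AD mice and at most 435 FPKM in control mice, so no library went against its genotype label. The 6 hippocampal subfield markers summed to 93.4 to 388 FPKM in the 11 MADMR and 11 FADMR libraries, 169 to 331 FPKM in MAD and FAD, 148 to 299 FPKM in MWTMR and FWTMR, and 138 to 295 FPKM in MWT and FWT. The lowest sum belonged to FADMR replicate 10, which stood apart. It had the highest striatum marker sum of the 85 libraries (59.9 FPKM, against a FADMR median of 23.1 FPKM) and an oligodendrocyte marker sum of 11345 FPKM (FADMR median 5766 FPKM), so the genotype results of Ccl3, Ccl6, Ccl4 and Cxcl16, the main correlations and the Ccl3 feed difference in AD females are also given without it. Some genes were listed at 0 where other libraries held them, such as Hmgn1 (median 7.38 FPKM, listed at 0 in 12 libraries) and the microglial gene Aif1 (listed at 0 in 83 of 85 libraries). A value of 0 is therefore reported only as listed.

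The 10 ligands spanned a wide range of levels. In the median of 85 mice, Cx3cl1 stood at 45.7 FPKM, Cxcl14 at 25.5 FPKM and Cxcl12 at 8.51 FPKM. Ccl3 followed at 2.10 FPKM, Cxcl16 at 0.879 FPKM, Ccl6 at 0.426 FPKM, Ccl12 at 0.124 FPKM, Cxcl10 at 0.0488 FPKM, Ccl4 at 0.0087 FPKM and Ccl2 at 0 FPKM. The lowest Cx3cl1 value (35.4 FPKM) lay above the highest Cxcl14 value (34.8 FPKM), and the lowest Cxcl14 value (17.1 FPKM) above the highest Cxcl12 value (16.0 FPKM). From Cxcl12 downwards, each neighbour in this order overlapped the next across mice. Cx3cl1 made up 35.6% to 62.6% of the summed FPKM of the 10 genes, and Ccl3 0.079% to 18.6%.

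**Figure D1:**
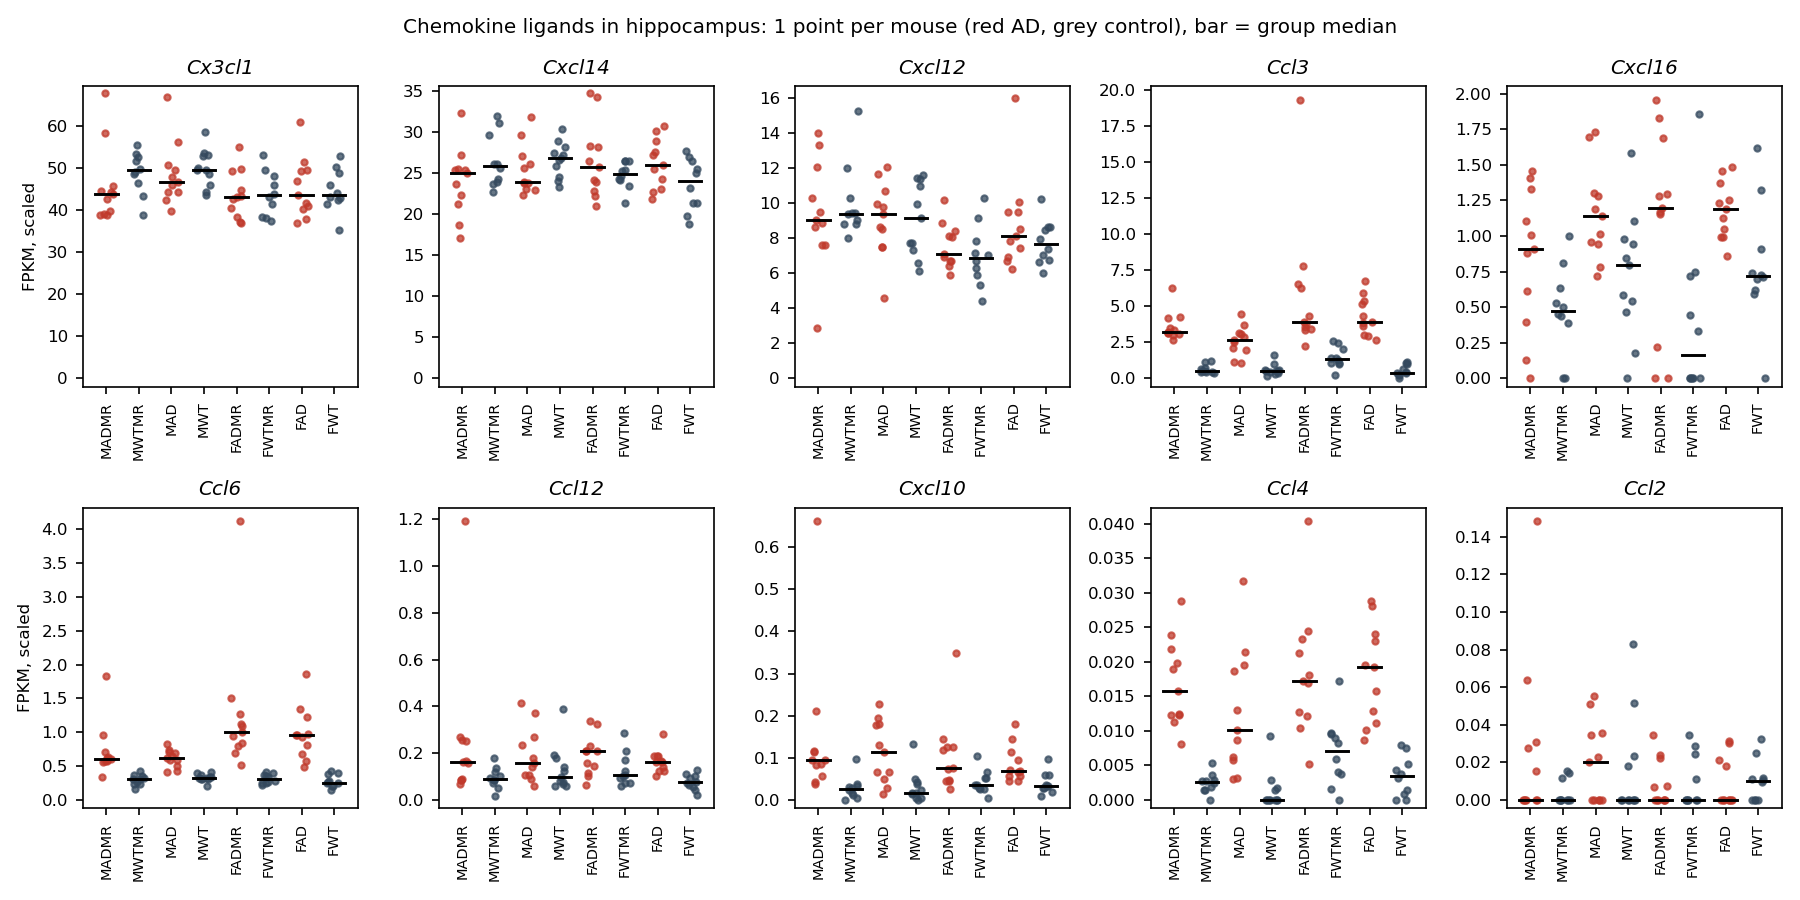
Scaled FPKM of the 10 chemokine genes by group, with 1 point per mouse, AD mice in red, control mice in dark grey and a bar at the group median; each panel has its own linear axis. The AD median of Ccl3, Ccl6 and Ccl4 lies above the control median in every pair, and AD and control mice overlap in every pair for Cx3cl1, Cxcl14 and Cxcl12.

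Ccl3, a macrophage attractant, showed the largest log2 genotype difference of the 6 ligands above the filter. FADMR mice had Ccl3 at 2.25 to 19.3 FPKM (median 3.94 FPKM), against 0.262 to 2.63 FPKM (median 1.34 FPKM) in FWTMR mice. FAD mice had 2.64 to 6.74 FPKM (median 3.89 FPKM), against 0.0594 to 1.17 FPKM (median 0.414 FPKM) in FWT mice. MADMR mice had 2.66 to 6.28 FPKM (median 3.24 FPKM), against 0.38 to 1.24 FPKM (median 0.524 FPKM) in MWTMR mice. MAD mice had 1.07 to 4.47 FPKM (median 2.64 FPKM), against 0.139 to 1.66 FPKM (median 0.535 FPKM) in MWT mice. AD and control groups did not overlap in FAD and FWT or in MADMR and MWTMR, where 0.0798% and 0.0517% of tested features lay wholly higher in AD (0.136% in FADMR and 0.0188% in MAD). In the other pairs they overlapped, with 10 of 11 FADMR mice and 9 of 11 MAD mice above the highest control mouse of their pair. The ratio of medians was 9.41 in females and 4.93 in males on standard feed, and 2.95 in females and 6.18 in males on restricted feed.

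Averaged over sex and feed, Ccl3 rose in AD mice by 1.43 ± 0.090 (SE) in log2(FPKM + 1) (limma, adjusted p = 1.82e-22). On this scale, 370 of 21297 features passed (1.74%), and 1.23% passed as higher. Within groups the log2 difference was 1.34 ± 0.18 in FADMR, 1.77 ± 0.18 in FAD, 1.48 ± 0.18 in MADMR and 1.14 ± 0.18 in MAD, each against its own control group. Each passed (limma, adjusted p = 2.61e-07, 2.42e-11, 3.09e-08 and 4.37e-05), where 1.38%, 0.517%, 0.113% and 0.061% of features did. Without FADMR replicate 10 the averaged difference was 1.39 ± 0.079 and the FADMR difference 1.16 ± 0.16. In bulk tissue, more cells of a type and more RNA per cell cannot be told apart.

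**Figure D2:**
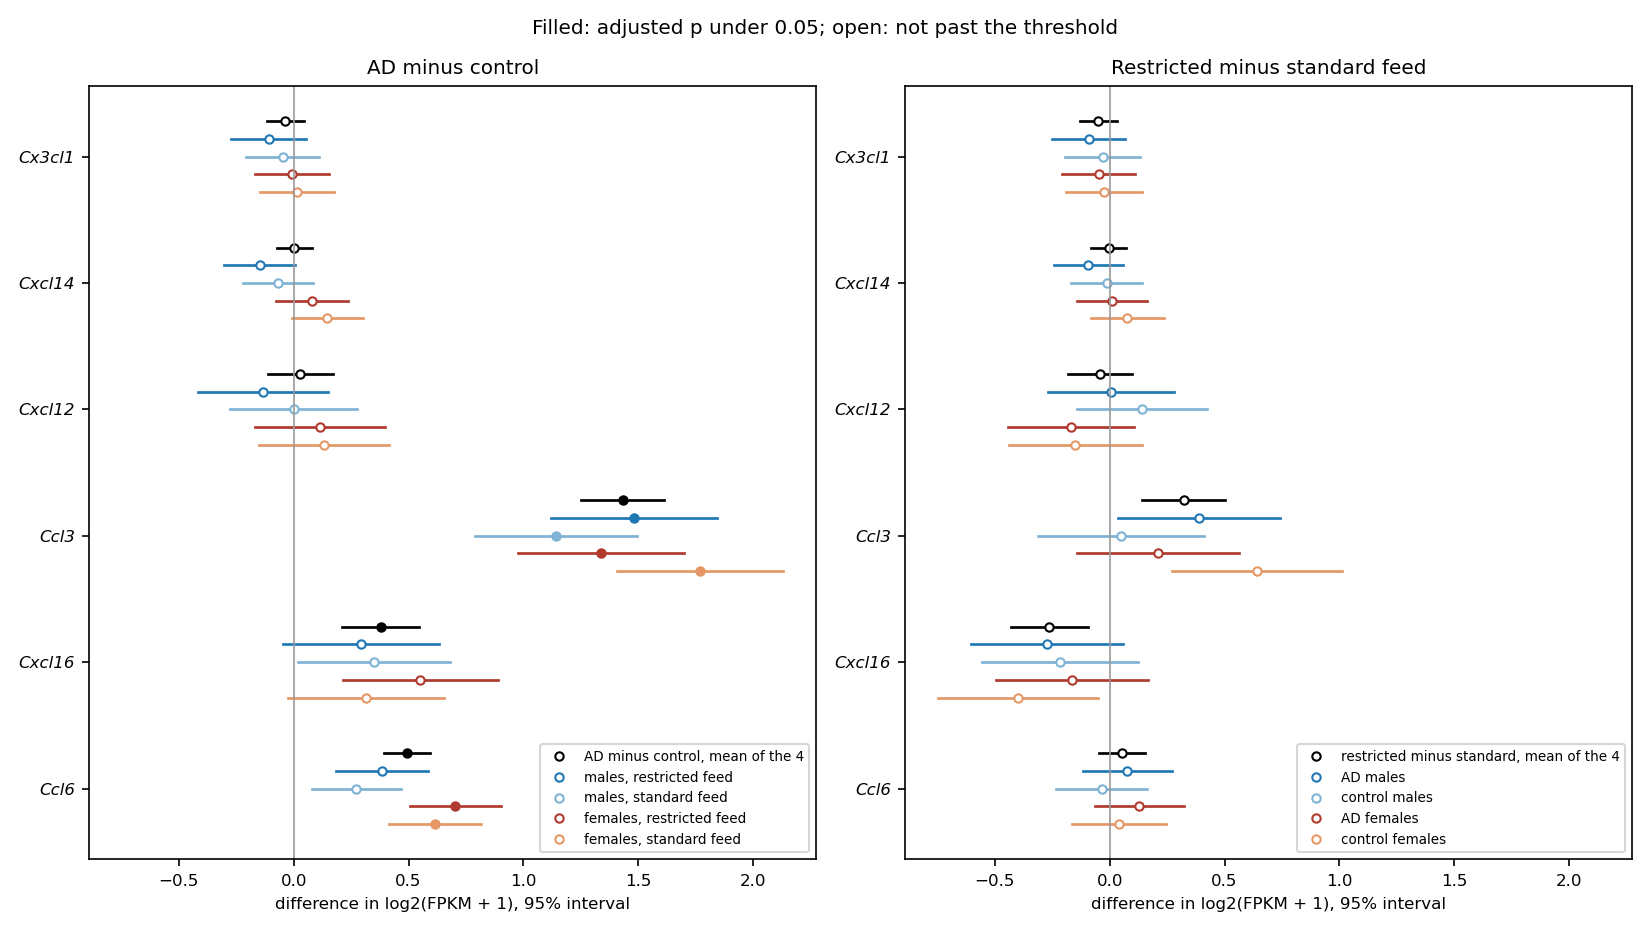
Differences in log2(FPKM + 1) with 95% intervals for the 6 chemokines above the filter, AD minus control on the left and restricted minus standard feed on the right, averaged (black) and within groups. Filled points passed at adjusted p under 0.05: Ccl3 in every genotype comparison, Ccl6 in the average and both female ones, Cxcl16 in the average, and none for feed.

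Ccl6, a ligand of Ccr1 in mice, lay in the same chromosome 11 cluster as Ccl3 and differed by genotype in females and on average. FADMR mice had Ccl6 at 0.511 to 4.12 FPKM (median 1.004 FPKM), against 0.220 to 0.417 FPKM (median 0.315 FPKM) in FWTMR mice. FAD mice had 0.493 to 1.87 FPKM (median 0.960 FPKM), against 0.148 to 0.426 FPKM (median 0.255 FPKM) in FWT mice. Neither female pair overlapped, as for 0.136% and 0.0798% of features. MADMR mice had 0.343 to 1.83 FPKM (median 0.608 FPKM), against 0.169 to 0.435 FPKM (median 0.308 FPKM) in MWTMR mice. MAD mice had 0.415 to 0.828 FPKM (median 0.614 FPKM), against 0.212 to 0.416 FPKM (median 0.330 FPKM) in MWT mice. In each male pair 10 of 11 AD mice lay above the highest control mouse.

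Ccl6 reached 1 FPKM, as deposited, in 11 AD mice and no control mouse. It passed the filter only through AD mice and so had to differ. Its averaged difference was 0.49 ± 0.050 (limma, adjusted p = 2.11e-12), and with no filter, over 47065 features, its adjusted p was 3.96e-12. Ranked within sex and feed, with the label permuted, p was 1e-05, the smallest that 100000 resamples can give (two-sided permutation test, higher in AD mice in 4 of 4 strata). The female differences passed, at 0.70 ± 0.10 in FADMR and 0.61 ± 0.10 in FAD (limma, adjusted p = 9.48e-07 and 4.26e-05). The male ones did not, at 0.38 ± 0.10 in MADMR and 0.27 ± 0.098 in MAD (limma, adjusted p = 0.112 and 0.466). The difference between the sexes was 0.33 ± 0.099 and did not pass (limma, adjusted p = 0.0648, where 0.629% of features passed). It passed without any 1 of MAD replicate 8, MWTMR replicate 11, MADMR replicate 6 or FAD replicate 5 (adjusted p 0.0329 to 0.0466). Without FADMR replicate 10 the averaged Ccl6 difference was 0.46 and the FADMR difference 0.58, both past the threshold, and the MADMR difference passed with an adjusted p of 0.00445. With another set of size factors and a filter on scaled values, Ccl6 reached 1 FPKM in 9 libraries and was not tested.

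Cxcl16, a membrane-held ligand and scavenger receptor, rose in the genotype average by 0.38 ± 0.085 (limma, adjusted p = 0.00406) and passed in no single pair. It reached 1 FPKM, as deposited, in 28 AD mice and 6 control mice. The 6 control mice fell short of the 10 libraries of the filter, so it passed only with AD mice counted. This selection favours a gene higher in AD mice without fixing the outcome, so the filtered result is not independent of it. With no filter the average was 0.38 with an adjusted p of 0.00562 (limma), and in ranks within sex and feed p was 1e-05 (two-sided permutation test, higher in AD mice in 4 of 4 strata). It was listed at 0 in 3 of 44 AD mice and 9 of 41 control mice. FADMR mice had Cxcl16 at 0 to 1.95 FPKM (median 1.20 FPKM), against 0 to 1.86 FPKM (median 0.166 FPKM) in FWTMR mice, where 5 of 10 were listed at 0. FAD mice had 0.860 to 1.48 FPKM (median 1.19 FPKM), against 0 to 1.62 FPKM (median 0.721 FPKM) in FWT mice. MADMR mice had 0 to 1.45 FPKM (median 0.912 FPKM), against 0 to 1.003 FPKM (median 0.477 FPKM) in MWTMR mice. MAD mice had 0.718 to 1.73 FPKM (median 1.14 FPKM), against 0 to 1.58 FPKM (median 0.796 FPKM) in MWT mice. All 4 pairs overlapped. With values listed at 0 left out, the average was 0.28 (limma, adjusted p = 0.0129), and without FADMR replicate 10 it was 0.36 and still passed. The FADMR difference of 0.55 ± 0.17 had an adjusted p of 0.0839 and passed without FWTMR replicate 5 or FADMR replicate 4, 5 or 9 (limma, adjusted p 0.0192 to 0.0396). It also passed with array weights (0.59, adjusted p = 0.0426), and without FADMR replicate 10 it was 0.49 and did not pass.

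Ccl4, Cxcl10, Ccl12 and Ccl2 stayed below the filter, and their levels were near the limit of what FPKM can show. Ccl4, a macrophage attractant encoded beside Ccl3, had 0.0031 to 0.0403 FPKM in AD mice (median 0.0163 FPKM) and 0 to 0.0172 FPKM in control mice (median 0.0028 FPKM), 11 of them listed at 0. Groups did not overlap in FAD and FWT or in MADMR and MWTMR, where 0.0489% and 0.0297% of 47065 features lay wholly higher in AD with no filter. Its median was 0.0172 FPKM in FADMR and 0.0071 FPKM in FWTMR, 0.0193 FPKM in FAD and 0.0035 FPKM in FWT, 0.0157 FPKM in MADMR and 0.0026 FPKM in MWTMR, and 0.0101 FPKM in MAD and 0 FPKM in MWT. Cxcl10, an attractant of T cells that interferons induce, had 0.0147 to 0.661 FPKM in AD mice (median 0.0842 FPKM) and 0 to 0.133 FPKM in control mice (median 0.0285 FPKM). Ccl12, a monocyte attractant found in mice, had 0.0588 to 1.19 FPKM in AD mice (median 0.163 FPKM) and 0.0177 to 0.389 FPKM in control mice (median 0.0940 FPKM). Ccl2, the main monocyte attractant, was listed at 0 in 24 of 44 AD mice and 24 of 41 control mice, and reached 0.148 FPKM in AD mice and 0.0827 FPKM in control mice.

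Ranks within sex and feed put Ccl4, Cxcl10 and Ccl12 higher in AD mice in 4 of 4 strata (two-sided permutation test, unadjusted p = 1e-05 each, the smallest that 100000 resamples can give), and Ccl2 in 2 of 4 (permutation p = 0.525). These belong to 12 such tests. With no filter, over 47065 features of which 1.11% passed, Ccl4 had an adjusted p of 1.14e-11, Cxcl10 of 0.00138, Ccl12 of 0.0483 and Ccl2 of 0.735 (limma). Their log2 differences were 0.02, 0.10, 0.11 and 0.01, so the scale compresses them. Cxcl10 and Ccl12 passed in no single genotype pair with no filter, and Ccl4 passed in FADMR, FAD and MADMR (limma, adjusted p = 0.0131, 0.00101 and 0.00434) and not in MAD (0.0982), where 0.884%, 0.274%, 0.0489% and 0.0234% of features passed.

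A single mouse set the top of 3 of these genes. MADMR replicate 3 had the highest Ccl12 (1.19 FPKM), Cxcl10 (0.661 FPKM) and Ccl2 (0.148 FPKM) of 85 mice, and the lowest Cxcl12 (2.90 FPKM) and Cxcl14 (17.1 FPKM). The next highest MADMR mice had 0.269, 0.211 and 0.0640 FPKM of the first 3. The same mouse had the highest border macrophage and neutrophil marker sums of its group, at 1.76 and 1.14 FPKM (ranks 17 and 5 of 85 mice). Its T cell marker sum of 0.414 FPKM was the group median. Its homeostatic and plaque-associated microglia marker sums had ranks 78 and 74 of 85. The part of these cell types in its values was not tested. Without it the permutation p of Ccl12 and of Cxcl10 was again 1e-05. FADMR replicate 10 had the highest Ccl3, Ccl6, Ccl4, Cxcl14 and Cxcl16 of 85 mice, and the third lowest Cx3cl1 (37.0 FPKM). Without it the permutation p was 1e-05 for Ccl6 and for Ccl4, and 3e-05 for Cxcl16.

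Promoter sequence is shown for Ccl3, Ccl6 and Cxcl10, 3 of the ligands that differed by genotype. The 250 bases before each RefSeq start (GRCm38.p6) run 5′ to 3′ on the gene's strand, which is the minus strand for all 3. Capitals mark matches to the NF-kB consensus, an interferon response element (a pair of GAAA half-sites, NN between them), TGANTCA (AP-1), TTGCNNAA (C/EBP) and AGAGGAAG (PU.1), each on both strands, and TATAAA on the gene's strand. They are chr11:83649379-83649628 for Ccl3, chr11:83593088-83593337 for Ccl6 and chr5:92348890-92349139 for Cxcl10.
Ccl3: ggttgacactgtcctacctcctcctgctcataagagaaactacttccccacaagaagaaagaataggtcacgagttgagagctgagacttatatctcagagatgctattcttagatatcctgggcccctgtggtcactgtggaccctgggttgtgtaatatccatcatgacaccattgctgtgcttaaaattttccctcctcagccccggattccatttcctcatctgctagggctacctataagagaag
Ccl6: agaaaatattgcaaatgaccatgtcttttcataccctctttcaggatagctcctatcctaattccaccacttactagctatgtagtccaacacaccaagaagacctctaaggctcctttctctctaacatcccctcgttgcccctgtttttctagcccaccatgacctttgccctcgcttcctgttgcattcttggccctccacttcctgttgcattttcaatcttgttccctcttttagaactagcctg
Cxcl10: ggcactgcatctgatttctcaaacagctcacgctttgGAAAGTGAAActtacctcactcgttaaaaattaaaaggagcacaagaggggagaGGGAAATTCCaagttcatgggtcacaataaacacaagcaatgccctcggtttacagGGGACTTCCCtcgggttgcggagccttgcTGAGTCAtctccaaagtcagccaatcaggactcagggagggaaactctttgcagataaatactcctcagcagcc
The Cxcl10 window held the NF-kB consensus at 2 places (GGGAAATTCC and GGGACTTCCC), the interferon element once (GAAAGTGAAA) and the AP-1 motif once (TGAGTCA). Among 32851 RefSeq promoter windows of the same length, 3.9% held the NF-kB consensus, 2.98% the interferon element, 6.75% the AP-1 motif, 9.56% the C/EBP motif, 3.67% the PU.1 motif and 7.59% TATAAA. The Ccl3 and Ccl6 windows held none of these letters. Of the 10 genes, 7 had a promoter entry, and Ccl2, Ccl4 and Cxcl16 had none. Among the windows not shown, that of Cxcl14 held the interferon element (GAAACAGAAA), and that of Cx3cl1 held AGAGGAAG and TATAAA. Neither of these genes passed for genotype. The Ccl12 window held TATAAA, and the Cxcl12 window held no match.

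Annotation limits apply to 6 of the 10. In RefSeq, Ccl3 (chr11:83647843-83649378) shares 755 bases with a Ccl4 model on the opposite strand, Ccl6 (chr11:83587886-83593087) lies inside the lncRNA gene E230016K23Rik, Cxcl10 (chr5:92346638-92348889) inside Art3, and Cxcl16 (chr11:70454389-70459984) shares 552 bases with Zmynd15. Cx3cl1 shares 1327 bases with the lncRNA gene Gm51543, whose level was not analysed here. The strand setting of the counting is not given in the sources used here, so reads of such pairs may not be told apart. The highest values of Art3 and Zmynd15 were 0.188 and 0.0869 FPKM, and that of E230016K23Rik was 0.0784 FPKM. Their medians were 0.109, 0.016 and 0.0118 FPKM, so that of Art3 lay above the 0.0488 FPKM of Cxcl10. Likewise the Ccl3 median of 2.10 FPKM lay above the 0.0087 FPKM of Ccl4. The part of the overlapping genes in the Ccl4 and Cxcl10 differences was not tested.

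The 3 abundant ligands did not pass for genotype. Cx3cl1 averaged 46.0 ± 7.44 FPKM in AD mice and 47.0 ± 5.43 FPKM in control mice (SD, n = 44 and 41), a log2 difference of -0.04 with a 95% interval of -0.12 to 0.04. Cxcl14 averaged 25.6 ± 3.76 FPKM in AD mice and 25.5 ± 2.83 FPKM in control mice, a log2 difference of 0.00 with an interval of -0.07 to 0.08. Cxcl12 averaged 8.74 ± 2.41 FPKM in AD mice and 8.50 ± 2.13 FPKM in control mice, a log2 difference of 0.03 with an interval of -0.11 to 0.17. Their adjusted p-values were 0.732, 0.988 and 0.900 (limma), and every group pair overlapped. Cx3cl1 medians were 44.0 FPKM in MADMR and 49.6 FPKM in MWTMR, 46.9 FPKM in MAD and 49.6 FPKM in MWT, 43.2 FPKM in FADMR and 43.6 FPKM in FWTMR, and 43.6 FPKM in FAD and 43.7 FPKM in FWT. In males, 9 of 11 MADMR mice and 8 of 11 MAD mice lay below the median of their controls. Cxcl14 medians were 25.0 FPKM in MADMR and 25.9 FPKM in MWTMR, 23.9 FPKM in MAD and 26.9 FPKM in MWT, 25.8 FPKM in FADMR and 25.0 FPKM in FWTMR, and 26.0 FPKM in FAD and 24.1 FPKM in FWT. Cxcl12 medians ran from 6.89 to 9.40 FPKM over the 8 groups. The genotype difference of Cxcl14 was 0.22 ± 0.078 larger in females than in males (limma, adjusted p = 0.101) and did not pass, but passed with array weights (adjusted p = 0.0367).

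None of the 6 ligands above the filter passed for feed (limma), where 0.141% of features passed in the feed average. Ccl3 differed by 0.32 ± 0.090 averaged over sex and genotype (limma, unadjusted p = 0.000608, adjusted p = 0.139). In control females the median was 1.34 FPKM in FWTMR mice and 0.414 FPKM in FWT mice, with 6 of 10 FWTMR mice above the highest FWT mouse. That difference was 0.64 ± 0.19 (limma, adjusted p = 0.195, where 0.0704% of features passed). It passed with a pseudocount of 0.1 (1.32, adjusted p = 0.0471) and with array weights (0.65, adjusted p = 0.0247). In the other pairs the Ccl3 feed difference was 0.21 in FADMR against FAD, 0.39 in MADMR against MAD and 0.05 in MWTMR against MWT, with adjusted p-values of 0.963, 0.752 and 0.991 (limma), where 0.0141%, 0.0141% and 0% of features passed. Without FADMR replicate 10 the FADMR difference was 0.03 ± 0.16. At an unadjusted p under 0.05, MWTMR against MWT gave 1435 features. Cxcl16 differed by -0.26 ± 0.085 with feed (limma, unadjusted p = 0.0027, adjusted p = 0.264), and 10 of 42 mice on restricted feed and 2 of 43 on standard feed were listed at 0. In ranks, Ccl4 had an unadjusted permutation p of 0.00833 for feed (higher on restricted feed in 3 of 4 strata) and Cxcl16 of 0.0291 (higher in 1 of 4), among the 12 tests. No ligand above the filter passed for genotype by feed or sex by feed (limma), where 0.0047% and 0% of features did; sex by feed gave 1875 features at an unadjusted p under 0.05.

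Between the sexes, 50.5% of all features passed, 27.4% as higher in females and 23% as lower, so the 4 ligands of 6 that passed stand near the background. Ccl3 was higher in females by 0.37 ± 0.090 and Ccl6 by 0.14 ± 0.050, and Cxcl12 was lower by -0.23 ± 0.071 and Cx3cl1 by -0.12 ± 0.041 (limma, adjusted p = 0.000533, 0.014, 0.00427 and 0.0128). Cxcl12 averaged 7.82 ± 1.91 FPKM in 42 females and 9.42 ± 2.33 FPKM in 43 males (SD). The Cxcl12 and Cx3cl1 calls were lost with markers of neighbouring tissues or of microglia as covariates (adjusted p 0.0746 to 0.484), and that of Cx3cl1 also with FPKM as deposited or equal totals.

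Receptors of these ligands did not pass for genotype. Of 23 chemokine receptor genes 5 were above the filter and none passed, where 1.74% of all features did. Cx3cr1, the microglial receptor of Cx3cl1, averaged 3.42 FPKM over all mice and differed by 0.22 ± 0.099 (limma, adjusted p = 0.291), and Ackr3 averaged 0.931 FPKM and differed by -0.04 ± 0.031 (adjusted p = 0.623). Cxcr4 (mean 0.648 FPKM), Cxcr3 (0.0529 FPKM) and Ccr2 (0.0427 FPKM) were below the filter.

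Enzymes, signalling genes and transcription factors of the pathway passed in few members. In this genotype average 1.74% of all features passed, 1.23% as higher. Of 4 tested processing enzymes, the locus of Ctss, a protease that can release Cx3cl1, rose by 0.52 ± 0.065 (limma, adjusted p = 7.86e-09), while the sheddases Adam10 and Adam17 differed by 0.12 ± 0.041 and 0.10 ± 0.036 without passing. That locus also holds Ctsk. Of 12 tested signalling genes, Rac2, a small GTPase of blood cells, rose by 0.35 ± 0.049 (adjusted p = 1.73e-07). Of 18 tested transcription factors and regulators 2 rose, among them Irf5, a factor of interferon responses, by 0.25 ± 0.067 (adjusted p = 0.0322). No tested gene of these lists passed as lower. Differences were positive in 4 of 4 enzymes, 9 of 12 signalling genes and 8 of 18 transcription factors and regulators. Of 5 tested ligands outside the 10, none passed: Cxcl5 differed by 0.27 ± 0.14 and Ccl25 by -0.12 ± 0.049 (adjusted p = 0.415 and 0.220). List medians were 0.11 for the enzymes, 0.06 for signalling, -0.0045 for transcription factors, 0.09 for receptors and -0.05 for the other ligands, against -0.01 over all features.

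Markers of microglia rose in the same contrast, as did 1 marker each of astrocytes and striatum. Over all features 1.74% passed, 1.23% as higher. Of 10 tested markers of plaque-associated microglia 7 rose, among them Clec7a (0.80 ± 0.053), Cst7 (1.01 ± 0.073) and Trem2 (0.83 ± 0.076), and of 7 tested homeostatic markers 3 rose, among them the Csf1r locus and Siglech (limma, adjusted p = 0.000355 and 0.0358). The summed plaque-associated list, most of it from the Lpl locus, ran from 890 to 1619 FPKM in AD mice and from 803 to 1360 FPKM in control mice. Cst7 was listed at 0 in 6 libraries, and Clec7a and Itgax in 1 each. Cst7 and Clec7a averaged 0.660 and 0.590 FPKM over all mice, below the 1 FPKM of the filter. Whether they passed it only through AD mice, and so had to differ, was not examined. With the mean of the homeostatic markers as a covariate the genotype difference was 1.32 for Ccl3, 0.41 for Ccl6 and 0.40 for Cxcl16 (limma, adjusted p = 4.95e-19, 4.67e-09 and 0.0127). That mean included Olfml3 and Aif1, listed at 0 in 63 and 83 libraries. How well it tracks microglial content was not tested. Of 6 tested astrocyte markers 1 rose, the intermediate filament gene Gfap, by 0.71 ± 0.073, and of 5 tested striatum markers 1 rose, the dopamine receptor gene Drd1, by 0.29 ± 0.059 (limma, adjusted p = 5.03e-12 and 0.00116). Differences were positive in 4 of 6 astrocyte and 3 of 5 striatum markers, with list medians of 0.17 and 0.02. Drd1 is not given without FADMR replicate 10, which had the highest striatum marker sum. The part of plaque-associated microglia, astrocytes and striatum in the differences of the ligands was not tested. Markers of T cells, neutrophils and border macrophages were all below the filter, with summed levels of at most 2.56, 1.83 and 4.31 FPKM in any library.

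Spread between mice within a group was compared after removing group means, so mean differences by genotype, feed and sex do not enter. Differences in spread remain. The SD of Ccl6 was 0.987, 0.386, 0.393 and 0.130 FPKM in FADMR, FAD, MADMR and MAD mice. In the control groups it was at most 0.0921 FPKM (FWT). AD mice thus weigh more than control mice in the correlations of Ccl6. Of 15 pairs of ligands, 8 passed by Pearson and 5 by both Pearson and Spearman correlation (permutation within groups, Benjamini-Hochberg over 15 pairs, n = 85 mice). Ccl3 and Ccl6 had r = 0.62 (permutation p = 1e-05, adjusted p = 0.00015) and rho = 0.41 (permutation p = 0.00028, adjusted p = 0.0021), and r was 0.49 without the 2 mice farthest in Ccl3, of which FADMR replicate 10 was 1. Without FADMR replicate 10 alone, r was 0.45 and rho 0.39 (n = 84). Cxcl12 and Cx3cl1 had r = 0.51 (permutation p = 5e-05, adjusted p = 0.000375) and rho = 0.45 (permutation p = 2e-05), and r was 0.47 without 2 mice. Cxcl14 went with Ccl6 at r = 0.46 and with Ccl3 at r = 0.38, which became 0.30 and 0.31 without 2 mice, and 0.39 and 0.29 without FADMR replicate 10. Values within 1 library share its depth and tissue makeup.

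Among 48 relations with marker means, 20 passed by both measures, 18 positive and 2 negative. Ccl6 and the mean of plaque-associated microglia markers had r = 0.76 and rho = 0.60 (permutation p = 1e-05 for both, the smallest that can be given), and r = 0.59 without 2 mice and 0.65 without FADMR replicate 10. Ccl3 had r = 0.56 with that mean (rho = 0.42, permutation p = 0.0001), Cxcl14 r = 0.56 (rho = 0.47), Cx3cl1 r = 0.44 (rho = 0.41) and Cxcl12 r = 0.36 (rho = 0.31). Without the 2 mice farthest in each ligand, r was 0.42 for Ccl3, 0.49 for Cxcl14, 0.31 for Cx3cl1 and 0.27 for Cxcl12. Without FADMR replicate 10, r was 0.40 for Ccl3, 0.52 for Cxcl14, 0.61 for Cx3cl1 and 0.46 for Cxcl12. The same ligands also passed by both measures with the mean of homeostatic microglia markers. There r was 0.30 for Ccl3, 0.43 for Ccl6, 0.46 for Cxcl12, 0.35 for Cxcl14 and 0.34 for Cx3cl1. In that order r was 0.305, 0.504, 0.466, 0.342 and 0.355 without FADMR replicate 10. Cxcl16 had r = -0.06 with that mean and did not pass. With the mean of astrocyte markers, Ccl3 had r = 0.25 (rho = 0.27) and Ccl6 r = 0.29 (rho = 0.43), or 0.32 and 0.45 (Pearson's r) without FADMR replicate 10. Cxcl16 had r = 0.15 with the mean of plaque-associated microglia markers (permutation p = 0.230) and did not pass. Cx3cl1 went with neuron markers at r = 0.36 and rho = 0.45 (permutation p = 0.00074 and 7e-05), and Cxcl14 with endothelial markers at r = 0.43 and rho = 0.44. The 2 negative relations were Cxcl16 with neuron markers (r = -0.29) and Cx3cl1 with meninges markers (r = -0.28).

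**Figure D3:**
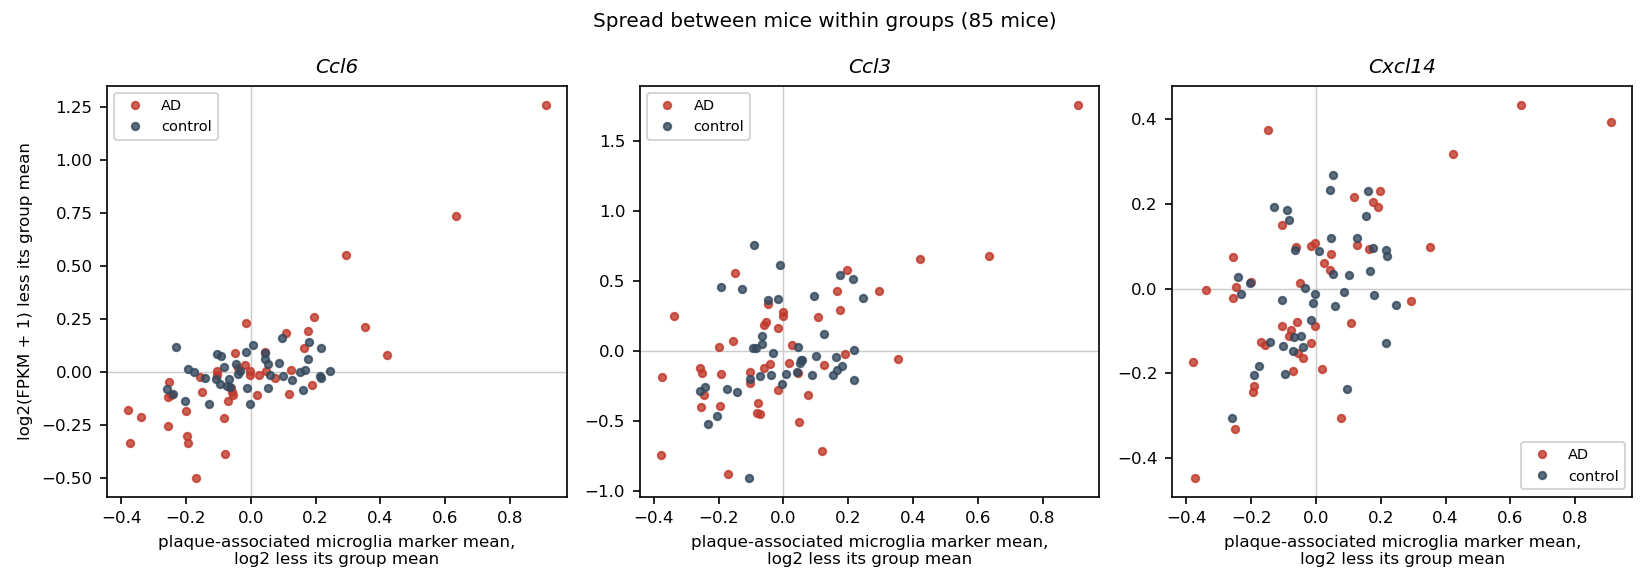
Each point is 1 of 85 mice: the x axis is the mean log2 level of plaque-associated microglia markers and the y axis log2(FPKM + 1) of Ccl6, Ccl3 or Cxcl14, each less its group mean. The 3 mice farthest right are AD mice (red; control mice are dark grey), and FADMR replicate 10 is the point farthest up and right for Ccl6 and Ccl3.

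**Figure D4:**
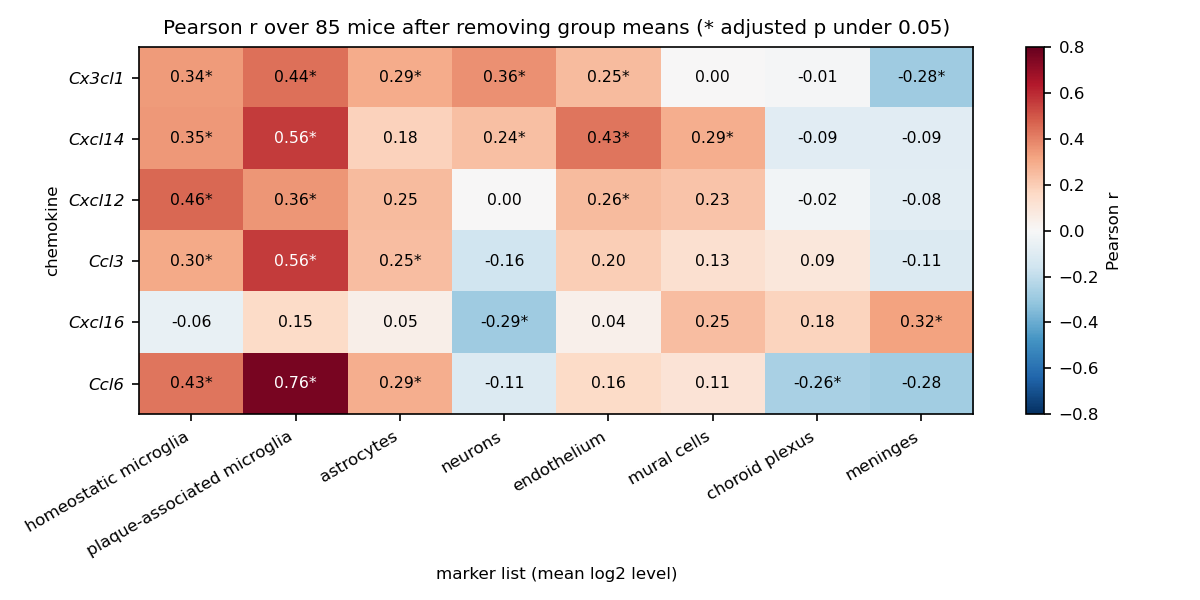
Pearson r over 85 mice between each of 6 chemokines (rows) and the mean log2 level of 8 marker lists (columns), after group means were removed; an asterisk marks an adjusted permutation p under 0.05 for Pearson's r alone. The highest value is that of Ccl6 with plaque-associated microglia, at 0.76.

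The genes most like each ligand in this within-group spread were sought among 11745 genes with a mean of at least 1 FPKM. For Ccl6 they were Tyrobp (r = 0.83), Trem2 (0.81) and C1qb (0.79). For Ccl3 they were Ctsz (0.68), Fcer1g (0.66) and Stard10 (0.64). For Cx3cl1 they were Abhd12 (0.87), Abcf2 (0.84) and Bcl7b (0.83), and for Cxcl14 Slc6a11 (0.84), Aldoc (0.78) and Slc9a3r1 (0.78). For Cxcl12 they were Kif26b (0.83), Sipa1l2 (0.80) and Mcm6 (0.78). For Cxcl16 the values were lower, with Nupr1 (0.53), H2-Aa (0.47) and Aspg (0.47). These genes were picked for their r, which is given as a description over 85 mice. Without FADMR replicate 10 the same genes had r of 0.50 to 0.57 for Ccl3 and 0.72 to 0.75 for Ccl6.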

How the data were processed

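FPKM per library (1 per mouse, 85 mice) were deposited by the authors in 1 table of 56090 rows. The submitters' processing notes list Trimmomatic 0.38, HISAT2, StringTie 1.3.4d and build GRCm38.p6. Their order, options and strand setting: not given in the sources used here. Depth is unknown, so precision rests on the spread between mice. Rows of 1 symbol were summed, features with at least 1 FPKM as deposited in at least 10 libraries were kept, and libraries were divided by median-of-ratios factors over kept features (0.876 to 1.101). An earlier run took the factors over all features and filtered after scaling. It was replaced after its output was seen, to follow an earlier account of these data, knowing that the change brought Ccl6 into the test; its values are given as an alternative. The deposited FPKM, divided by the factors over kept features, were taken as log2(FPKM + 1). They were fitted with limma 3.58.1 (R 4.3.3, statmod 1.5.0), 8 group means, trend and robust prior, 77 residual degrees of freedom. P-values are two-sided, Benjamini-Hochberg adjusted over all features within a comparison, threshold 0.05. The script was tested on simulated data. Correlations and rank tests used within-group or within-stratum permutation (100000 resamples).

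The 10 genes and all lists were chosen with earlier results of these data known. Genes named are the 10; of each pathway list, up to 4 by smallest p that passed in the genotype average, otherwise 2; the 3 genes most correlated with each ligand; and receptors of the ligands. Some genes that this rule names are not reported here. Adam10, Adam17, the Ctsk locus, Hmgn1, Aif1 and the marker genes were named after their values were seen. Alternatives varied the pseudocount, filter, scaling, trend, weights, replicate block, tissue and microglia covariates, the groups fitted and each library. Correlations without FADMR replicate 10, and the shares of features with no filter, were added after seeing the data. Promoters are from RefSeq, GRCm38.p6 (7 of 10 matched).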

Additional observations from a re-analysis of the deposited data

Results flagged for a closer look

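In the 3 groups of 10 mice (MWTMR, FWTMR and FWT), 30 sets of values were searched for a mouse far from the others, and 2 were found; chance alone flags about 1 in 20. In FWTMR mice, the highest Cxcl16 value was 1.86 FPKM and the next 0.745 FPKM, in a group where 5 of 10 mice were listed at 0. In MWTMR mice, the highest Cxcl10 value was 0.0967 FPKM and the next 0.0371 FPKM. Groups of 11 were not searched.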

How the results depend on the processing

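Among the 6 ligands above the filter no call changed direction under any alternative. Ccl2, Ccl4, Ccl12 and Cxcl10 were fitted only with no filter. A filter at 5 FPKM left 3 ligands, so 0 were called in the 4 genotype comparisons and their average, and 2 for sex. Factors over all features with a filter on scaled values left Ccl6 untested, and 1 ligand was called in FAD and in FADMR against their controls. The count was 2 in MAD with only the compared groups (Ccl6 adjusted p 0.0328 there), and 2 in MADMR with pseudocount 0.1, also with no filter, or with array weights. It was 1 in FWTMR against FWT with pseudocount 0.1 or array weights, 2 for sex with tissue or microglia covariates, and 2 for genotype by sex with array weights. Leaving out 1 library gave 0 to 1 called for genotype by sex, 1 to 2 in MADMR against MWTMR and 2 to 3 in FADMR against FWTMR; in the other comparisons the count did not move.

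Over all features the genotype average gave 203 to 1158 calls across alternatives (370 as reported) and 317 to 490 without 1 library. Genotype by sex gave 134, and 0 to 1494 without 1 library (0 without FWT replicate 2, 1494 without FAD replicate 5). FAD against FWT gave 110, and 61 to 604 without 1 library. Replicate numbers do not pair the mice: same-numbered mice correlated at a median of -0.00619 (281 pairs), and 7 of 85 correlated best with their own number. With a replicate block the averaged differences were 1.44 for Ccl3, 0.49 for Ccl6 and 0.37 for Cxcl16, all still past the threshold. With a pseudocount of 0.1 the averaged log2 differences were 2.29 for Ccl3, 1.17 for Ccl6 and 0.95 for Cxcl16, since a smaller pseudocount compresses low values less. Depth is unknown, so no limit can be set on genes listed at 0.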

Other observations

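Ligands outside the 10 were among the most abundant chemokines of these libraries. Ccl25 averaged 81.4 FPKM over 85 mice (48.0 to 127 FPKM), above the 46.5 FPKM of Cx3cl1, and Ccl27a averaged 28.4 FPKM (15.2 to 59.8 FPKM). Ccl17 averaged 15.7 FPKM (1.55 to 33.2 FPKM), and the Ccl28 locus, which also holds Gm7120, 15.0 FPKM (6.03 to 23.4 FPKM). Of the other ligands below the filter, Ccl9 averaged 0.507 FPKM and Ccl5 0.126 FPKM. These levels were looked up after the values were seen and carry no test.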
